A study of Homo sapiens with 6 samples.

Results

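The genes of the EGFR ligands and of the proteases that release them were examined in PANC-1 cells after silencing of METTL16, an RNA methyltransferase. The 9 genes were AREG, EREG, HBEGF, TGFA, BTC, EGF, NRG1, ADAM10 and ADAM17, and they were found by their symbols among the 58735 genes of the deposited table. PANC-1 is an established human cell line of pancreatic ductal adenocarcinoma. The groups were 3 samples transfected with a control siRNA (si-NC) and 3 samples that received siRNA directed at METTL16, here named si-METTL16. The control samples are titled si-NC while another label of theirs reads WT, and the titles were followed. The study's methods describe biological triplicates of stably transfected cells. The siRNA used for sequencing and the time after transfection are not given in the sources used here. Sample titles and siRNA names share the same numbers, so repeats of 1 siRNA and single samples of different siRNAs cannot be told apart.

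EGFR ligands are made as membrane-anchored precursors and are released by cleavage just outside the membrane, a step called shedding. ADAM17 is the main sheddase of AREG, EREG, HBEGF and TGFA, and ADAM10 is the main sheddase of EGF and BTC. The released ligands bind EGFR on the same or on neighbouring cells, and the receptor signals through RAS and ERK. NRG1 differs from the other ligands in that it binds ERBB3 and ERBB4 rather than EGFR. In pancreatic ductal adenocarcinoma, EGFR and several of its ligands are known to be expressed by the tumour cells.

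The libraries held between 15725298 and 18054436 counts, and 3 counts in a library, taken as the detection floor, corresponded to 0.166 to 0.191 CPM, the count scaled to library size. Such floors cover counting error only. METTL16 had 1546, 1641 and 1764 counts in si-NC and 571, 528 and 627 in si-METTL16 replicates 1, 2 and 3 and was thus lower in every silenced sample. Adjusted p below are from the quasi-likelihood test of edgeR over all 15089 tested genes, corrected by Benjamini-Hochberg, with a threshold of 0.05, and log2FC is the log2 fold change of si-METTL16 against si-NC. As markers of the line, KRT8, KRT18, KRT19 and SOX9 had mean FPKM of 151, 175, 44.8 and 43.1 in si-NC cells. The rest of the 8 ductal and epithelial markers, EPCAM, CDH1, KRT7 and MUC1, were low there, at 1.82, 1.66, 0.949 and 0.652. All 8 had enough counts to be tested. Of these, KRT7, KRT19, CDH1 and SOX9 were lower after silencing, KRT19 with a mean FPKM of 16.7. The summed FPKM of the list was 353 to 455 in si-NC and 361 to 401 in si-METTL16 samples, mostly from KRT8 and KRT18. Among 4 mesenchymal markers 3 were tested and CDH2 was higher, with sums of 172 to 229 and 224 to 241. Most of these sums was VIM, with mean FPKM of 184 in si-NC and 195 in si-METTL16 cells. Of 14 markers of other cells, 3 (CD68, COL1A1 and COL3A1) passed the filter and were higher after silencing. Another 4 (CD3E, CPA1, AMY2A and GCG) had 0 counts in every sample. The rest, PTPRC, PECAM1, VWF, DCN, PRSS1, INS and SST, had at most 5 counts in a sample and were too low to test. For these marker calls, 18.4% of all tested genes were called higher and 17.5% lower. The summed FPKM of the list was 27.6 to 31.2 in si-NC and 64.4 to 67.8 in si-METTL16 samples. COL1A1 made up most of that sum, with mean FPKM of 26.4 in si-NC and 62.5 in si-METTL16 cells. The part of these markers in the ligand results was not tested.

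Of the 9 genes, 7 had enough counts to be tested. EREG, AREG, TGFA and ADAM17 were higher after silencing, with folds of 4.19, 2.56, 1.45 and 1.28. HBEGF, NRG1 and ADAM10 did not pass the threshold, and BTC and EGF were too low to test. Of all tested genes 35.9% passed, 18.4% as higher and 17.5% as lower. The 4 genes that passed were also the 4 whose groups did not overlap, as was so for 50.9% of all tested genes. The calls of EREG and AREG were kept in each of the 15 other fits, whereas those of TGFA and ADAM17 were close to the threshold, as given with each gene. The median log2FC of the 7 tested genes was 0.48, and that of all tested genes was -0.0045. The genes were chosen with earlier results of these data known, so these counts are descriptions.

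**Figure D1:**
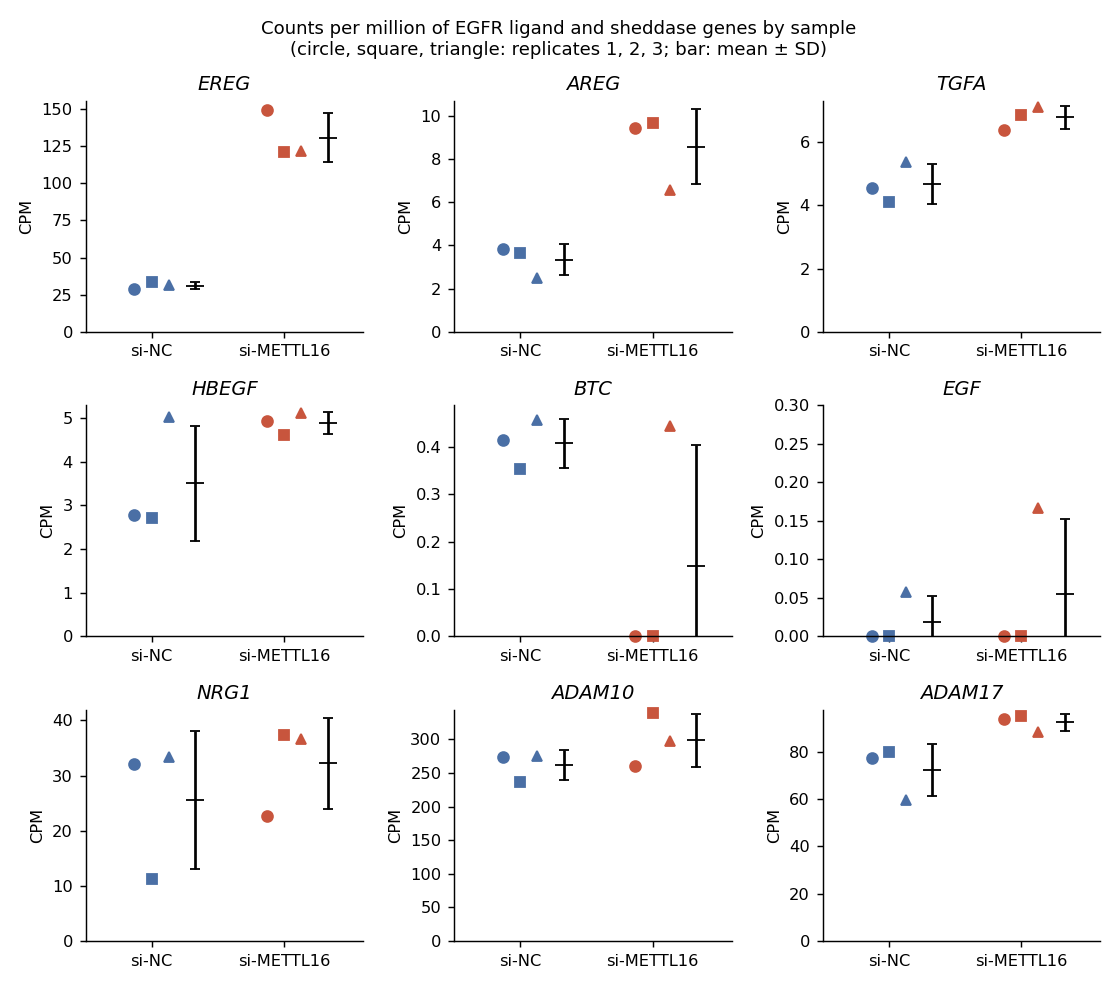
CPM (vertical axes, linear from 0) of the 9 genes in each sample, with circles, squares and triangles for replicates 1, 2 and 3 and bars for the mean ± SD (n = 3). EREG lies at 28.9 to 33.4 in si-NC and at 121 to 150 in si-METTL16 samples, while HBEGF, NRG1 and ADAM10 overlap between the groups.

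EREG encodes epiregulin, a ligand of EGFR and ERBB4. Its counts were 489, 566 and 548 in si-NC and 2455, 1892 and 2185 in si-METTL16 replicates 1, 2 and 3. Every silenced sample lay far above every control. The level rose from 31.2 ± 2.21 CPM (SD, n = 3) to 131 ± 16.3 CPM (SD, n = 3). EREG thus had a log2FC of 2.07 (standard error 0.11, 95% interval 1.81 to 2.32, edgeR adjusted p = 9.2e-05), which was the 76th highest log2FC and the 31st lowest p among the 15089 tested genes. By mean FPKM, EREG stood above 62.4% of tested genes in si-NC cells and above 89.1% in si-METTL16 cells. Since RNA was taken from whole cultures, more cells that express a gene and more RNA per cell cannot be told apart, here and for the other genes.

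AREG encodes amphiregulin, a ligand specific to EGFR. Its counts were 65, 62 and 44 in si-NC and 155, 151 and 118 in si-METTL16 replicates 1, 2 and 3. Both groups were separate, with replicate 3 the lowest of each. The mean was 3.34 ± 0.722 CPM (SD, n = 3) in controls and 8.56 ± 1.74 CPM (SD, n = 3) after silencing. AREG had a log2FC of 1.36 (standard error 0.23, 95% interval 0.81 to 1.91, edgeR adjusted p = 0.00428). The ratio of EREG to AREG by FPKM was 2.58, 3.13 and 4.27 in si-NC and 5.43, 4.30 and 6.35 in si-METTL16 samples. The log2 ratio was 0.70 higher on average after silencing, with a two-sided exact permutation p of 0.1, the smallest that 3 samples against 3 allow. The lowest silenced ratio lay just above the highest control ratio, and this comparison was chosen after the values were seen.

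**Figure D2:**
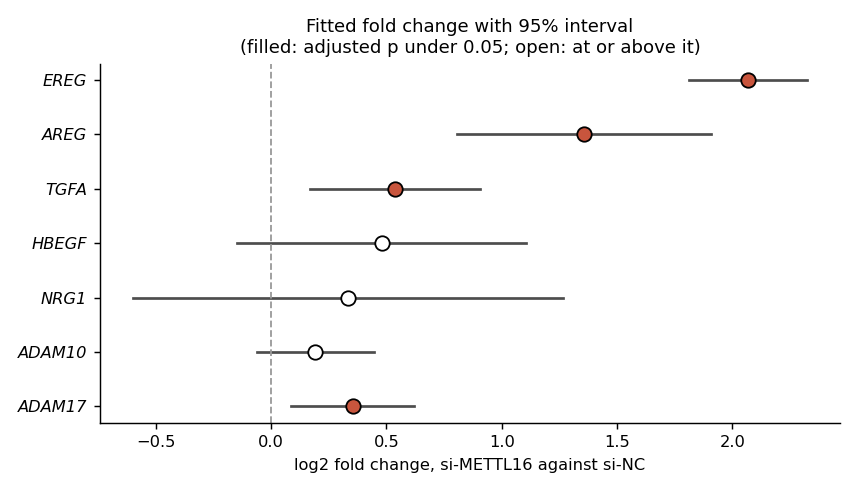
Log2 fold change of si-METTL16 against si-NC (horizontal axis) for the 7 tested genes, with lines for the 95% interval and filled points for an adjusted p under 0.05. EREG at 2.07 and AREG at 1.36 lie apart from the other 5 genes, which lie between 0.19 and 0.54.

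EREG and AREG are neighbours on chromosome 4, in the same orientation. In the coordinates of the deposited table (GRCh38), EREG runs from 74365143 to 74388751 and AREG from 74445134 to 74455009, 56382 bases apart. EPGN, the gene of the ligand epigen, ends 49835 bases before EREG. BTC lies on the minus strand, and its end nearer to AREG is 289749 bases beyond AREG. The sequences just upstream of the starts of EREG and AREG are shown because these neighbouring genes both rose. Both are 250 bases on the plus strand from RefSeq (GRCh38.p14), at chr4:74364895-74365144 for EREG and chr4:74444886-74445135 for AREG, ending at the base before the start that RefSeq annotates. Capitals mark the motifs found.
EREG: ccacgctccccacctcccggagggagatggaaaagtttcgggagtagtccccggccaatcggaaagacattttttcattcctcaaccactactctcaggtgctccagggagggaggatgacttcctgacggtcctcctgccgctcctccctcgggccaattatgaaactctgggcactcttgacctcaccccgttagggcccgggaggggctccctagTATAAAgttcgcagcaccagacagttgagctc
AREG: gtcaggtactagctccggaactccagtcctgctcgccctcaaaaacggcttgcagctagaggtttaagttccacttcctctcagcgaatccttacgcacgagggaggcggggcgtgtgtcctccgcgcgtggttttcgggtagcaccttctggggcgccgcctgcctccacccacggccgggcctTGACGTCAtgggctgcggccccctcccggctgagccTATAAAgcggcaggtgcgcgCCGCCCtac

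Of the motifs searched on either strand, both sequences hold a TATA box (TATAAA), which begins 32 bases before the start of EREG and 29 bases before that of AREG. TATAAA is present in the same 250-base window of 10.7% of the 35116 promoters of this table. The sequence of AREG also holds a cyclic AMP response element (TGACGTCA), 65 bases before the start, which 1.65% of promoters hold. A GC box (GGGCGG, found as its reverse complement CCGCCC) lies 9 bases before the start of AREG, and 42.6% of promoters hold one. Neither sequence holds an AP-1 site (TGANTCA, 6.57% of promoters) or an E-box (CACGTG, 6.34%). The matches do not overlap each other. Over 9 windows of 8 of the genes (NRG1 was not searched, and TGFA has a further start), TATAAA was in 2 and TGACGTCA in 1. The GC content was 58.0% for EREG and 65.2% for AREG. A match describes the letters of the window and not use of the site.

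Of 42 genes within 1 Mb of EREG, 16 had any counts and 6 were tested, and of these 6 only EREG and AREG passed the threshold, a share close to the 35.9% of all tested genes, so nothing is read from the count. MTHFD2L, the nearest tested gene upstream, had 142, 169 and 163 counts in si-NC and 90, 97 and 152 in si-METTL16 samples, with a log2FC of -0.45. CXCL1, a chemokine gene of the same region, had a log2FC of 0.58, and its groups overlapped. CXCL8 and PARM1 had log2FC of -0.26 and 0.08, also with overlapping groups. EPGN had at most 4 counts in a sample. The interval of CXCL8 was the widest, from -1.41 to 0.88, and this gene had 5 to 17 counts in a sample. This window was chosen after the values were seen.

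**Figure D3:**
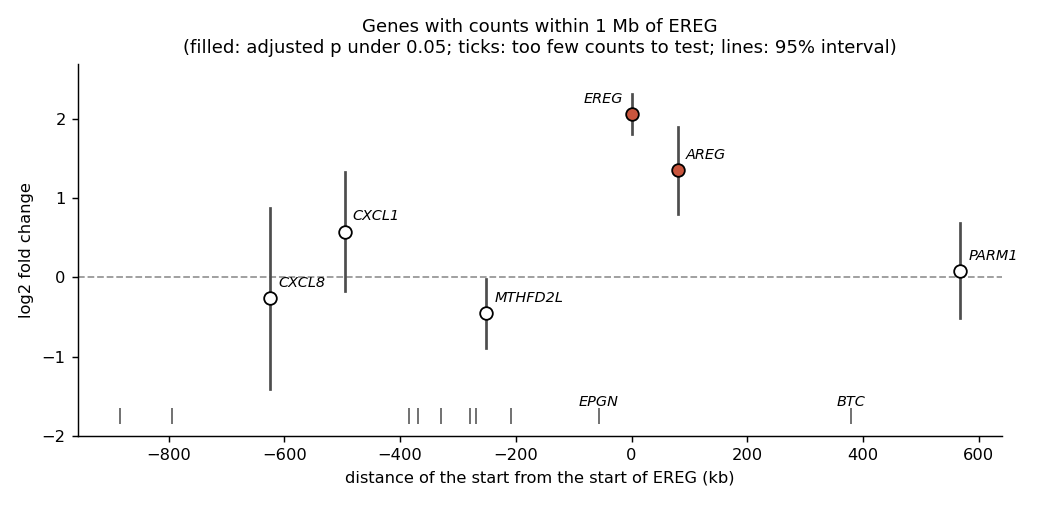
Log2 fold change (vertical axis) of genes with counts within 1 Mb of EREG, by distance from EREG in kb (horizontal axis). The distance is between the lowest coordinates of the genes, called starts on the axis, whichever the strand. Lines show the 95% interval, filled points an adjusted p under 0.05 and ticks genes with too few counts to test. EREG (2.07) and AREG (1.36) are the filled points.

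TGFA encodes transforming growth factor alpha, a ligand of EGFR, and lies on chromosome 2 from 70447280 to 70554193. Its counts were 77, 70 and 94 in si-NC and 105, 107 and 128 in si-METTL16 replicates 1, 2 and 3. In CPM the groups did not overlap, at 4.13 to 5.36 and 6.40 to 7.12. Silencing gave a log2FC of 0.54 (standard error 0.16, 95% interval 0.17 to 0.90, edgeR adjusted p = 0.0335). The call was lost when si-NC replicate 1 or 2 or any si-METTL16 replicate was left out (log2FC 0.45 to 0.57, edgeR adjusted p 0.0626 to 0.103).

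HBEGF encodes heparin-binding EGF-like growth factor, a ligand of EGFR and ERBB4, and lies on chromosome 5 from 140332843 to 140346631. Its counts were 47, 46 and 88 in si-NC and 81, 72 and 92 in si-METTL16 replicates 1, 2 and 3. Control replicate 3 lay among the silenced samples, so the groups overlapped. The log2FC of 0.48 (95% interval -0.15 to 1.11, edgeR adjusted p = 0.202) did not pass the threshold. Without si-NC replicate 3 it was 0.83 and passed (edgeR adjusted p = 0.0254), while over the 15 other fits the adjusted p ran from 0.0254 to 0.441.

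BTC, the gene of betacellulin, had 7, 6 and 8 counts in si-NC and 0, 0 and 8 in si-METTL16 replicates 1, 2 and 3. All control samples were above the floor of 3 counts, and so was 1 silenced sample, while the other silenced samples had no counts. BTC lies on chromosome 4 from 74744759 to 74794686 and was removed by the filter on low counts. Without that filter its adjusted p was 0.476 in edgeR. EGF, the gene of epidermal growth factor, had 0, 0 and 1 counts in si-NC and 0, 0 and 3 in si-METTL16 samples, and no sample exceeded the floor. It lies on chromosome 4 from 109912884 to 110012266. A difference in EGF was not detectable at this depth. EPGN, with 0, 0 and 4 counts in si-NC and 0, 0 and 2 in si-METTL16 samples, was likewise too low to test.

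NRG1 encodes neuregulin 1, and the deposited table places it on chromosome 8 between 31639386 and 32767959. Its counts were 542, 190 and 585 in si-NC and 373, 582 and 658 in si-METTL16 replicates 1, 2 and 3. Control replicate 2 was the lowest sample and silenced replicate 1 the next, and the groups overlapped. Silencing gave a log2FC of 0.33 (95% interval -0.60 to 1.27, edgeR adjusted p = 0.547), and it was -0.029 without si-NC replicate 2. The interval holds both a fall and a rise. Of the other neuregulin genes, NRG2 had 180 to 260 counts in every sample and a log2FC of 0.14 (edgeR adjusted p = 0.471). NRG4 had at most 10 counts and NRG3 had 0 counts in all samples.

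ADAM17, also known as the TNF-converting enzyme, lies on chromosome 2 from 9488486 to 9556732. It had 77.6, 80.0 and 59.9 CPM in si-NC and 94.0, 95.1 and 88.6 CPM in si-METTL16 replicates 1, 2 and 3. All silenced samples lay above the controls, of which replicate 3 was the lowest. Silencing gave a log2FC of 0.35 (standard error 0.11, 95% interval 0.08 to 0.62, edgeR adjusted p = 0.0481). This call was lost when si-NC replicate 1 or 3 or any si-METTL16 replicate was left out, with a log2FC of 0.23 without si-NC replicate 3 and adjusted p from 0.0669 to 0.120 in edgeR. The exons of ADAM17 overlap those of IAH1, a gene on the opposite strand, by 1645 bases (GENCODE release 44). IAH1 had 2105 counts over the 6 samples against 8338 for ADAM17, and its log2FC was -0.30 (edgeR adjusted p = 0.0507). Whether counting used strand is not given in the sources used here, so reads in the overlap cannot be told apart.

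ADAM10 lies on chromosome 15 from 58588807 to 58749978. It had 273, 236 and 276 CPM in si-NC and 260, 339 and 298 CPM in si-METTL16 replicates 1, 2 and 3. Groups overlapped through silenced replicate 1. The log2FC of 0.19 (95% interval -0.06 to 0.44, edgeR adjusted p = 0.208) did not pass the threshold. The ratio of ADAM10 to ADAM17 by FPKM was 3.70 to 5.76 in si-NC and 3.46 to 4.45 in si-METTL16 samples (two-sided exact permutation p = 0.5).

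Levels were compared between genes by the deposited FPKM, which takes gene length into account. In si-NC cells the order was ADAM10 (11.5 ± 0.973, SD, n = 3), EREG (4.89 ± 0.347), ADAM17 (2.55 ± 0.384), AREG (1.52 ± 0.329), NRG1 (1.18 ± 0.574), HBEGF (0.843 ± 0.317), TGFA (0.654 ± 0.0883), BTC and EGF. The samples of AREG and NRG1, of NRG1 and HBEGF and of HBEGF and TGFA overlapped, so these neighbours were not apart. In si-METTL16 cells EREG (20.2 ± 2.41) stood above ADAM10 (12.9 ± 1.74) with no overlap of their samples. AREG followed at 3.85 ± 0.769 and overlapped with ADAM17 at 3.20 ± 0.110. NRG1 (1.46 ± 0.379) and HBEGF (1.16 ± 0.0620) also overlapped, and TGFA came next at 0.935 ± 0.0549, above BTC and EGF, which overlapped. EREG was thus the most expressed ligand in each group, and TGFA lay below the other tested ligands in si-METTL16 cells, whereas in si-NC cells it was not apart from HBEGF and NRG1.

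Summed over the 6 EGFR ligand genes, the FPKM was 7.73, 8.23 and 8.16 in si-NC and 29.2, 25.1 and 24.2 in si-METTL16 replicates 1, 2 and 3. EREG made up 58.7% to 63.4% of this sum in si-NC and 74.5% to 78.6% in si-METTL16 samples. Without EREG the sum was 3.01 to 3.26 in si-NC and 5.33 to 6.40 in si-METTL16 samples. The share of AREG was 14.1% to 22.7% and 12.3% to 17.3%, and the groups overlapped. The sum is a description of the transcripts, and no test was made on it.

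**Figure D4:**
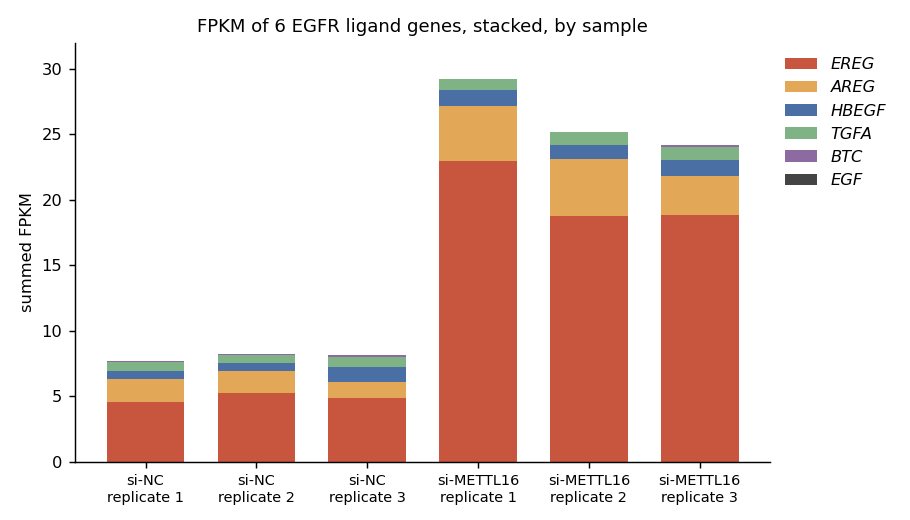
FPKM of the 6 EGFR ligand genes stacked by sample (vertical axis, linear from 0). The si-NC bars reach 7.73 to 8.23 and the si-METTL16 bars 24.2 to 29.2, and EREG is the largest block of every bar.

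EGFR, the receptor of these ligands, had 5762, 5335 and 5070 counts in si-NC and 6432, 5587 and 4880 in si-METTL16 samples. Its groups overlapped, and the log2FC of 0.11 (edgeR adjusted p = 0.550) did not pass the threshold. ERBB2, the receptor that binds no ligand of its own and pairs with the others, fell from 1127, 1324 and 1236 counts to 741, 649 and 847, a log2FC of -0.68 (standard error 0.09, edgeR adjusted p = 0.00127). ERBB3 had 52 to 90 counts and a log2FC of 0.25 (edgeR adjusted p = 0.497), and ERBB4 had at most 4 counts in a sample. EGFR had the highest FPKM of the ERBB receptors in si-NC cells, at 18.9 ± 1.54 (SD, n = 3) against 4.11 ± 0.330 for ERBB2.

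Of 16 genes linked to shedding (cofactors, inhibitors and other proteases) 15 were tested, 6 fell and 9 did not pass, with a median log2FC of -0.39. Of all tested genes 35.9% were called, 18.4% as higher and 17.5% as lower, whereas every call in this list was lower. The share called in either direction was near that of all genes, and the list mixes cofactors with inhibitors, so nothing is read from the count. The count was 4 when si-NC replicate 1 or 3 was left out. No test was made on the list. FURIN, a convertase that removes the prodomain of ADAM proteases, fell from 4602, 3497 and 4685 counts to 2218, 1846 and 2442, a log2FC of -0.94 (standard error 0.12, edgeR adjusted p = 0.00114). PCSK7, another convertase gene of the list, had a log2FC of 0.03 (edgeR adjusted p = 0.831) and did not pass. TSPAN15, a tetraspanin partner of ADAM10, fell with a log2FC of -0.51 (adjusted p = 0.0105), and RHBDF1, which encodes an iRhom needed for ADAM17 maturation, with -0.32 (adjusted p = 0.0462, both from edgeR). RHBDF2, the other iRhom, had a log2FC of -0.36 (edgeR adjusted p = 0.0813) and did not pass. PACS2, a sorting protein of ADAM17, and RHBDL2, a rhomboid protease that can cleave EGF, fell with -0.42 and -0.49. Their edgeR adjusted p were 0.0160 and 0.0439, the latter close to the threshold like that of RHBDF1. The list also holds inhibitors, and of these TIMP1 fell (-0.39, edgeR adjusted p = 0.00315).

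Among 7 other membrane-anchored ADAM genes 4 were tested, and 2 of them rose. Of all tested genes 35.9% were called and 18.4% were called higher. With so few genes nothing is read from the count. ADAM19, a metalloprotease known to cleave neuregulin, had 680, 836 and 660 counts in si-NC and 1845, 1659 and 1536 in si-METTL16 samples, with no overlap. Its log2FC was 1.26 (standard error 0.14, edgeR adjusted p = 7.1e-04). ADAM9 rose with a log2FC of 0.68 (edgeR adjusted p = 6.9e-04), from 4488, 4535 and 4627 to 7727, 6142 and 7338 counts. ADAM8 and ADAM15 did not pass the threshold.

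Of 15 other substrates of ADAM10 and ADAM17, 14 were tested, 3 rose, 4 fell and 7 did not pass, where 18.4% of all tested genes were called higher and 17.5% lower. TNFRSF1B and CDH1, which encode a TNF receptor and E-cadherin, fell by 1.74 and 1.09 on the log2 scale, and CD44, a hyaluronan receptor, rose by 0.68.

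Downstream of the receptor, 2 of the 8 adaptor genes rose, 2 fell and 4 did not pass, where 35.9% of all tested genes passed in either direction. PTPN11, which encodes the phosphatase SHP2, rose with a log2FC of 0.81 (edgeR adjusted p = 1.6e-04), and SOS1, an exchange factor of RAS, fell with -1.10 (edgeR adjusted p = 2.1e-04). Of 15 genes of receptor feedback and turnover, 3 fell (EPS15, SOCS5 and USP8, -0.40 to -0.33) and 12 did not pass. The share that fell was near the 17.5% of all tested genes called lower, so nothing is read from the count. ERRFI1, the feedback inhibitor of EGFR, was among those that did not pass, with a log2FC of -0.0046. Of 17 ERK targets and feedback genes, 9 rose, 3 fell and 5 did not pass, with a median log2FC of 0.64, where 18.4% of all tested genes were called higher and 17.5% lower. MYC, a growth-promoting transcription factor, had 141, 356 and 81 counts in si-NC and 1353, 1129 and 1011 in si-METTL16 samples, with a log2FC of 2.64 (standard error 0.49, edgeR adjusted p = 0.00607). FOSL1, an AP-1 subunit, had 445, 365 and 415 counts in si-NC and 1293, 1082 and 982 in si-METTL16 samples (95% interval of the log2FC 1.15 to 1.86, edgeR adjusted p = 4.8e-04). DUSP4, an ERK phosphatase counted among the 9, had 6, 3 and 8 counts in si-NC and 25, 18 and 18 in si-METTL16 samples, so it passed the filter on low counts only through the group where it is high, and its call is no support for a rise. DUSP6, another ERK phosphatase, fell (-0.37, edgeR adjusted p = 0.0343). SPRED1, an inhibitor of RAS signalling, also fell (-0.68, edgeR adjusted p = 6.2e-04). CCND1, which encodes cyclin D1, had a log2FC of -0.48 (edgeR adjusted p = 7.1e-04).

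**Figure D5:**
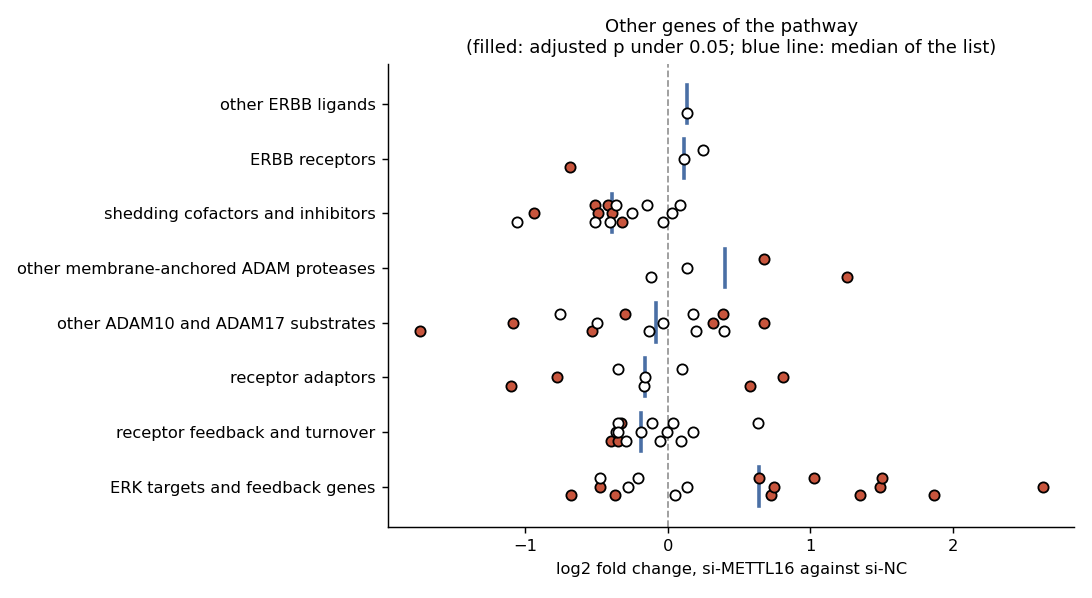
Log2 fold change of si-METTL16 against si-NC (horizontal axis) for the tested genes of 8 lists of the pathway, with filled points for an adjusted p under 0.05 and a blue line for the median of each list. The medians run from -0.39 for genes linked to shedding to 0.64 for ERK targets and feedback genes.

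The tested genes nearest to each member were found by the distance between log2 CPM profiles relative to the si-NC mean, over the 6 samples and 13803 genes. ZNF616 (distance 0.22, log2FC 2.11) and MMP24 (0.24 and 2.09) were nearest to EREG. TSPYL4 and E2F7 were nearest to AREG, at distances of 0.34 and 0.38. Among the nearest genes of the other members were MUTYH for HBEGF, CCDC107 for TGFA, ZDHHC8P1 and SEMA3D for NRG1, SFXN5 and CYP1B1 for ADAM10, and TMX2 and ZNF37BP for ADAM17. None of the 9 genes was among the 2 nearest of another.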

How the data were processed

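RNA-seq data of 6 PANC-1 samples were used, 3 si-NC and 3 si-METTL16, with groups taken from their titles. The table that the authors deposited holds raw gene counts and FPKM, the count scaled by gene length and library total. The submitters' processing notes list HISAT2 2.0.4, StringTie 1.3.0 and the build GRCh38; their roles, the counting program, the annotation release and the use of strand are not given in the sources used here. Of the table's symbols, 27 had been turned into dates and were restored from gene identifiers. No authors' comparison columns were used.

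CPM was computed from the counts with TMM factors. The filter was filterByExpr (minimum count 10, minimum total 15), and for the 15089 genes it left, groups were tested in edgeR 4.0.16 (R 4.3.3) by the quasi-likelihood functions glmQLFit and glmQLFTest. P-values were adjusted by Benjamini-Hochberg over all of them, with a threshold of 0.05. The methods of the study name limma, which was run as an alternative together with DESeq2. Standard errors were derived from each gene's F statistic. Precision was limited by 3 samples per group (biological coefficient of variation 16.5%) and, for low genes, by depth. No libraries were duplicates: chi-square divided by its degrees of freedom was 14.7 or more within groups. P-values measure the spread between these samples.

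The main edgeR fit was tested on simulated counts with known changes in far fewer genes than the 5418 called in the data. It called 77 of 104 genes changed by 1 on the log2 scale and 95 of 96 changed by 2. Of 14685 unchanged genes it called 12. Smaller changes, such as those fitted for TGFA and ADAM17, were not simulated. The members and gene lists were chosen with earlier results of these data known. Named genes were the members, METTL16, all other ERBB ligands and receptors, up to 3 called genes at each end of a list, and the 2 nearest profiles per member. Some of these nearest genes are not reported here. Further genes were named after their values were seen (pathway genes that did not pass, the genes around EREG, IAH1). Promoters were taken from RefSeq (GRCh38.p14) and exon overlaps from GENCODE release 44; of the 9 genes, 1 has the same start and end in the deposited table and in GENCODE. Alternatives were a replicate block, each sample left out, 2 other filters, DESeq2 size factors, DESeq2 1.42.0, limma 3.58.1 on voom values and on log2(FPKM + 1) and log2(FPKM + 0.1) where the mean FPKM reached 1, and a threshold of 0.01.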

Additional observations from a re-analysis of the deposited data

How the results depend on the processing

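EREG, AREG and METTL16 kept their direction and call under all 15 alternatives, with log2 fold changes of 1.84 to 2.12, 0.94 to 1.52 and -1.52 to -1.15. ADAM10 kept its direction and stayed uncalled in these fits. The number of the 9 genes called was 4, 2 to 4 with each sample left out, and 2 without a filter on low genes, with limma on log2(FPKM + 1) or log2(FPKM + 0.1), and at a threshold of 0.01. TGFA was no longer called with DESeq2 (log2 fold change 0.54, adjusted p = 0.0505, range over its 13 alternatives 0.0292 to 0.103), without a filter (0.53), or at a threshold of 0.01 (0.54), ranged from 0.45 to 0.64 with each sample left out and was then called only without si-NC replicate 3, and its mean FPKM was too low for the FPKM fits. ADAM17 was no longer called without a filter (0.35), on log2(FPKM + 1) (0.25), on log2(FPKM + 0.1) (0.33) or at a threshold of 0.01 (0.35), ranged from 0.23 to 0.42 with each sample left out and was then called only without si-NC replicate 2. HBEGF ranged from 0.32 to 0.83 with samples left out and was called without si-NC replicate 3, and NRG1 ranged from -0.029 to 0.57, reversed without si-NC replicate 2 (-0.029). The causes were not tested. At a threshold of 0.01, 3035 genes were called in place of 5418, and 2 in place of 6 of the genes linked to shedding. In both FPKM fits 2 in place of 4 adaptor genes were called. With the replicate block, 5013 genes were called and TGFA was not (0.54, adjusted p = 0.0566 from edgeR); the block left the calls of the other members as they were. Same-numbered samples correlated at 0.0253 to 0.0371 in their deviations from the group means, each best with its own number. Correlations this small do not settle whether same-numbered samples were handled together, which the sources used here do not give. Depth limits BTC, EGF and EPGN.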

Other observations

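Several genes of the shedding, substrate and ERK lists had 1 sample far from the other samples of its group, a spread that the group mean hides. They were picked after their values were seen. TSPAN17, a tetraspanin partner of ADAM10, had 1645, 1608 and 688 counts in si-METTL16 replicates 1, 2 and 3, against 1580, 1610 and 1734 in si-NC. PHLDA1, an ERK target, had 7737, 2183 and 8254 counts in the same silenced replicates and 7186, 7234 and 7817 in si-NC. CX3CL1, a shed chemokine, had 202, 149 and 556 counts in si-NC and 102, 227 and 294 in si-METTL16 samples. The sample that stood apart differed between these genes and NRG1, and none of them passed the threshold in edgeR.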
